A study of Mus musculus with 12 samples.

Results

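Most of the 10 genes Dazl, Ddx4, Mael, Stk31, Sycp3, Scml2, Usp26, Tex101, AU018091 and Inpp5d are known from germ cells, and all were followed array by array in mouse neurons derived from embryonic stem cells. They were 10 of the 19938 genes that the array annotation named by a single symbol, and each was read by 1 probe set. They had been chosen by their values on the knockdown arrays, which varied strongly between replicates, so the within-group differences and the knockdown differences of these genes are given below as a description, with no test. The samples were 12 cultures at day 16 of neuronal differentiation through embryoid bodies formed without LIF, the cytokine that keeps embryonic stem cells undifferentiated. All were grown from D3, a line of mouse embryonic stem cells. The groups were unmodified D3 cells with no treatment (D3), D3 cells that carried a scrambled, non-targeting sequence (siSCR), and D3 cells in which the arginine methyltransferase PRMT1 (siPRMT1) or its relative PRMT8 (siPRMT8) was knocked down. Every group had 3 biological replicates. Each group was 1 line, and the labels do not say whether its replicates came from separate differentiations, so a p-value measures only the spread between these samples. Total RNA of whole cultures was read on 1-colour whole-transcript arrays as 1 log2 value per probe set. Fewer cells of a type and less RNA per cell cannot be told apart in such samples.

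Array medians lay within 0.023 log2 of each other. Their interquartile ranges ran from 2.89 to 3.13, with the lowest in siPRMT1 replicate 2. Prmt1, checked first, read 7.72, 7.95 and 7.59 in siPRMT1 and 8.84, 8.74 and 8.86 in siSCR, so the siPRMT1 labels held on all 3 arrays. Prmt8 read 6.44, 6.17 and 6.44 in siPRMT8 against 6.60, 7.18 and 7.10 in siSCR. Prmt8 was also low in siPRMT1, at 6.35, 6.89 and 6.67. siSCR replicate 1 stood apart from the other control arrays in its neuronal genes (mean of 17 listed genes 8.33, against 9.31 to 9.45 on the other 5 control arrays) and lay near the 6 knockdown arrays (8.04 to 8.42). Counts and differences against siSCR are also given without it.

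Many genes of the germ cell programme are kept silent in other cells by DNA methylation of CpG-rich promoters, which DNMT3A and DNMT3B set and DNMT3L assists, and by a non-canonical polycomb complex, PRC1.6. That complex reaches DNA through factors that include MGA and MAX, which bind the E-box CACGTG, and E2F6, which binds E2F-type sites. Embryonic stem cells express several germ cell genes at a low or variable level, so a culture derived from them can hold such transcripts. The label of a germ cell gene applied to most of the 10 and not to all. Inpp5d encodes the inositol phosphatase SHIP1, best known from blood cells. The label of strong swings also did not apply to Stk31 and Tex101, whose values spanned 0.39 and 0.24 log2 over the siPRMT1 arrays, near or not far above the median span of all tested genes there (0.23).

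The promoter sequences of 4 of the genes are shown because the genes moved together across arrays and because these promoters differ in the letters that PRC1.6 factors are known to bind. Each run is the 250 bases before the start site in RefSeq (GRCm38.p6), 5′ to 3′ on the gene's own strand, with E-box (CACGTG) and E2F-type (GGCGGGA) matches on either strand in capitals. The windows are chr1:166238745-166238994 (minus strand) for Mael, chr13:112652311-112652560 (minus strand) for Ddx4, chr10:88459337-88459586 (plus strand) for Sycp3 and chr17:50293621-50293870 (minus strand) for Dazl.
Mael: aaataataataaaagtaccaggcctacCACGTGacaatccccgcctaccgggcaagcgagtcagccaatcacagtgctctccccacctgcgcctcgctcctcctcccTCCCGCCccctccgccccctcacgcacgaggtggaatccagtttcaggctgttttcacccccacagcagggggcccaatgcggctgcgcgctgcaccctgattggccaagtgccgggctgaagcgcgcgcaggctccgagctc
Ddx4: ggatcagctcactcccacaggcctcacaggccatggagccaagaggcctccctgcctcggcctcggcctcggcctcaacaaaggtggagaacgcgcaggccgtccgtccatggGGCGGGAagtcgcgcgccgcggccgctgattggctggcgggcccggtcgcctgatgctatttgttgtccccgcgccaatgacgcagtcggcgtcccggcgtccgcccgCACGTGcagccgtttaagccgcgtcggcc
Sycp3: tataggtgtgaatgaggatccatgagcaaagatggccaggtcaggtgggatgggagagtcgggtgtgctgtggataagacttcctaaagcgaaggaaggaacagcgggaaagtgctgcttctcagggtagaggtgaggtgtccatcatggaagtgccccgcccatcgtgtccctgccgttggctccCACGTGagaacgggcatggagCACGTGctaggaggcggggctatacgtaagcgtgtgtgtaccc
Dazl: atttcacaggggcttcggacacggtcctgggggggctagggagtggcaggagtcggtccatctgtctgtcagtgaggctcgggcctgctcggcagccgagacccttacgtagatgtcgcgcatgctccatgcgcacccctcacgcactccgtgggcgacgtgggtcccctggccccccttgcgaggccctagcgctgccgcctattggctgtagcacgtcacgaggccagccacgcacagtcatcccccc
Mael had an E-box that began 223 bases and an E2F-type match that began 143 bases before the start. Ddx4 had them at 29 and 137 bases. Sycp3 had E-boxes at 64 and 43 bases and no match to the letters GGCGGGA. Other forms of E2F-type site were not searched for in any window, so a window without a match can still hold such a site. Dazl, the gene with the widest swing, had neither set of letters in this window. Of the 9 genes with a sequence in the table, 4 had an E-box (Mael, Ddx4, Sycp3 and Stk31) and 2 had an E2F-type match (Mael and Ddx4). Among all 32851 windows of this length, 6.02% held an E-box, 9.75% an E2F-type match and 0.868% both. CpG pairs numbered 31 in the Ddx4 window, 20 in Dazl, 18 in Mael and 12 in Sycp3, and 5 in each of the windows of Usp26 and Inpp5d, against a median of 6 over all windows. A match of letters describes these windows only, and genes with and without a match were among those with wide swings.

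Dazl, an RNA-binding protein needed for germ cell development, had the widest span within a group. It read 7.61, 6.84 and 7.61 in the D3 arrays and 8.06, 7.94 and 7.57 in siSCR. The siPRMT1 arrays read 7.83, 5.13 and 7.32, and the siPRMT8 arrays 5.33, 6.36 and 5.46. Replicates 1 and 3 of siPRMT1 thus lay among the controls, whereas replicate 2 was the lowest of all 12 arrays. The span in siPRMT1 was 2.70 log2, or 6.51-fold. By group mean the order was siSCR (7.86 ± 0.26, SD, n = 3), D3 (7.35 ± 0.44), siPRMT1 (6.76 ± 1.44) and siPRMT8 (5.71 ± 0.56), and the arrays of every neighbouring pair in that order overlapped.

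Mael acts in transposon silencing by piRNAs in the male germline. It read 8.82, 8.47 and 8.82 in D3, 9.15, 9.00 and 8.84 in siSCR, 9.50, 6.92 and 9.22 in siPRMT1, with 7.61, 8.45 and 7.80 in siPRMT8. Replicates 1 and 3 of siPRMT1 were above all 6 control arrays, and replicate 2 was below every other array. All siPRMT8 arrays were below the lowest control array.

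Ddx4, the RNA helicase of germ granules, swung less. Its values were 6.74, 6.67 and 6.62 in D3, 6.75, 6.44 and 6.29 in siSCR, 7.11, 6.09 and 7.02 in siPRMT1, with 6.47, 6.81 and 6.53 in siPRMT8. The siPRMT1 arrays lay on both sides of the controls, and the siPRMT8 arrays lay among or just above them. Stk31, a tudor-domain protein of germ cells, fell under the filter on low values. It read between 3.89 and 4.45 on all 12 arrays.

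Sycp3 forms the lateral elements of the synaptonemal complex, the scaffold that joins chromosomes in meiosis. It read 7.06, 6.91 and 7.04 in D3, 7.02, 6.76 and 6.65 in siSCR, 7.59, 5.29 and 7.34 in siPRMT1, with 6.22, 7.13 and 6.49 in siPRMT8. The span of 2.30 in siPRMT1 ran from the lowest to the highest of all 12 values. In siPRMT8 replicate 2 was above all controls, while replicates 1 and 3 were below them.

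Scml2 is an X-linked polycomb-related protein of male germ cells, and Usp26 an X-linked deubiquitinating enzyme of the testis. Scml2 read 8.14, 7.62 and 8.13 in D3, 8.54, 8.42 and 8.17 in siSCR, 8.48, 6.52 and 8.28 in siPRMT1, with 6.73, 7.55 and 6.64 in siPRMT8. Usp26 read 8.39, 7.95 and 8.37 in D3, 8.80, 8.57 and 8.28 in siSCR, 9.05, 7.03 and 8.69 in siPRMT1, with 7.15, 7.85 and 7.09 in siPRMT8. In both genes siPRMT1 replicate 2 was the lowest of the 12 arrays, and the siPRMT8 arrays were all below the lowest control.

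AU018091 read 9.24, 8.69 and 9.09 in D3, 9.60, 9.18 and 8.87 in siSCR, 9.56, 6.97 and 9.12 in siPRMT1, with 7.11, 7.93 and 6.80 in siPRMT8. Inpp5d read 7.87, 7.63 and 7.93 in D3, 8.66, 8.28 and 8.03 in siSCR, 8.16, 6.27 and 7.87 in siPRMT1, with 6.54, 7.15 and 6.22 in siPRMT8. Both had all siPRMT8 arrays below all controls, and in both siPRMT1 replicate 2 lay within the range of the siPRMT8 arrays. Tex101, a surface glycoprotein of male germ cells, behaved differently. It read 5.70, 5.44 and 5.58 in D3, 5.65, 5.53 and 5.61 in siSCR, 5.95, 5.71 and 5.89 in siPRMT1, with 5.54, 5.43 and 5.33 in siPRMT8, so all siPRMT1 arrays were above all controls and replicate 2 was the lowest of them by little.

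**Figure D1:**
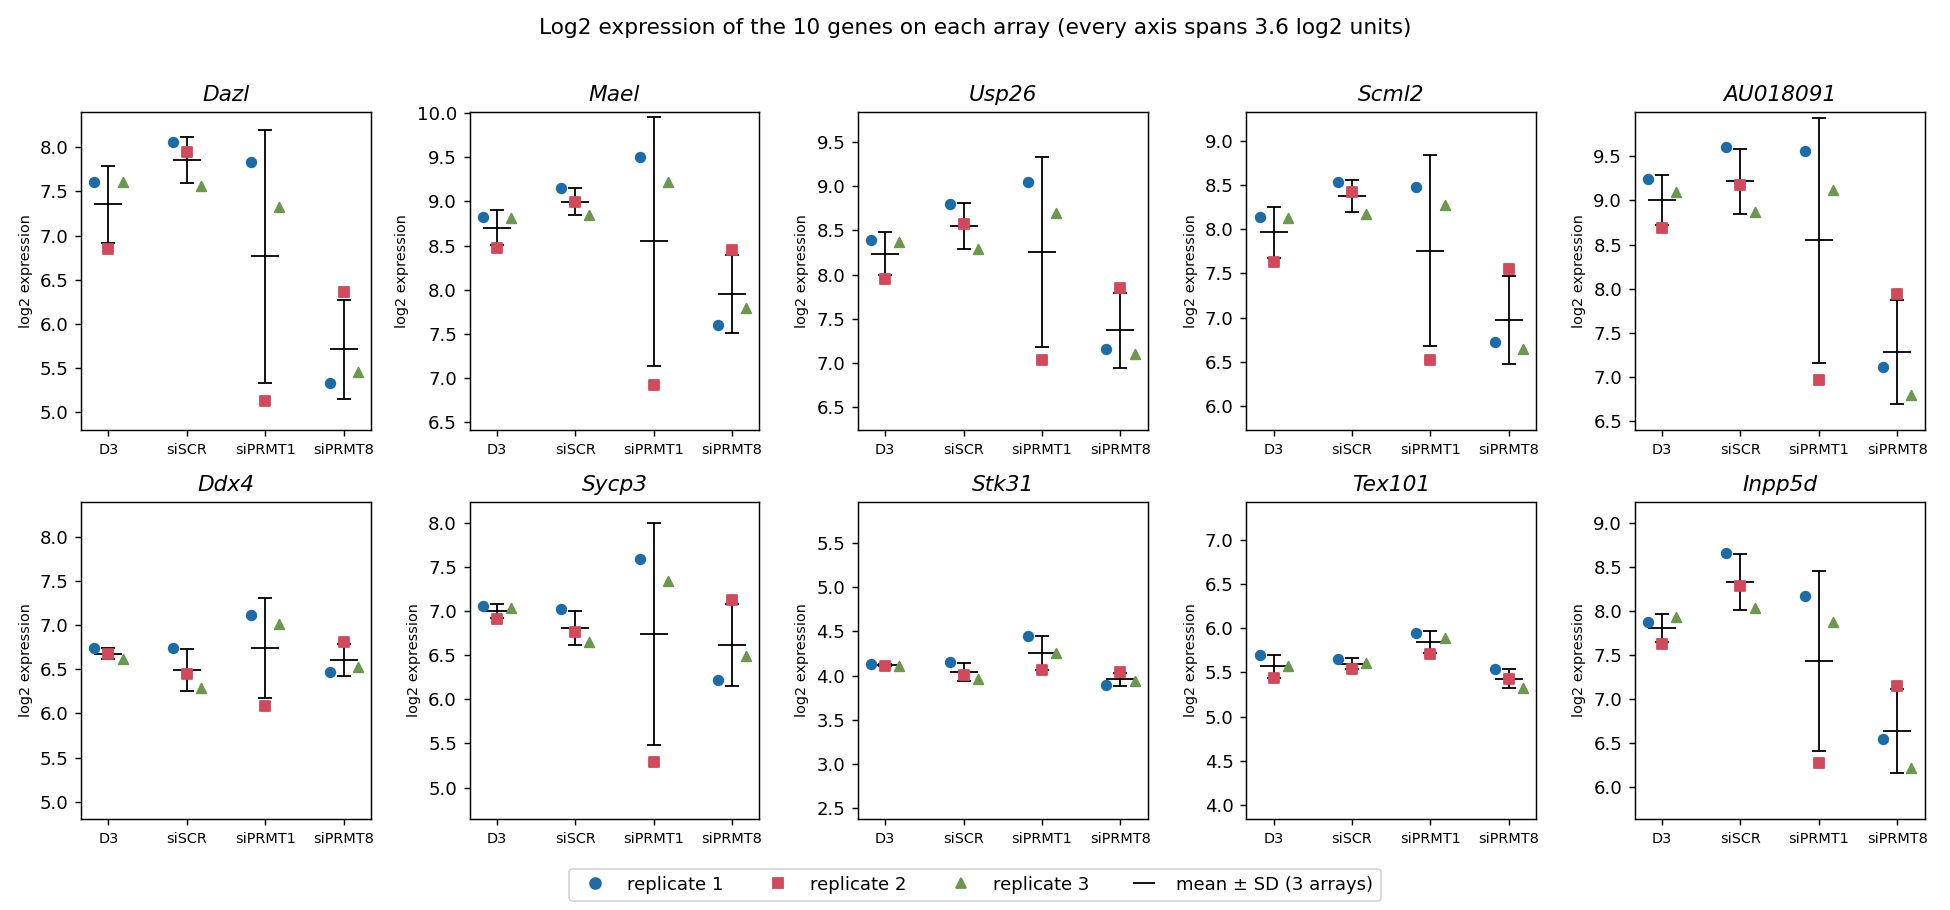
Log2 expression of each of the 10 genes (y axis, every panel spanning the same number of log2 units) on each array, by group (x axis). Points are replicates by colour and shape, and black bars are the mean ± SD of 3 arrays; siPRMT1 replicate 2 lies far below replicates 1 and 3 for 8 genes (Ddx4 to Dazl, -0.97 to -2.45) and close to them for Stk31 and Tex101.

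The same arrays were high or low across the 10 genes. Set against the mean of the other arrays of its group, siPRMT1 replicate 2 was lower for 10 of 10 genes, by a median of -1.85 log2, while the median over all tested genes was 0.0032. The differences ran from -0.21 for Tex101 and -0.30 for Stk31 through -0.97 for Ddx4 to -2.44 for Mael and -2.45 for Dazl. In siPRMT8 the odd array was also replicate 2, with the opposite sign. It was higher than the mean of replicates 1 and 3 for 9 of 10 genes, by 0.98 for AU018091, 0.96 for Dazl, 0.87 for Scml2 and 0.77 for both Sycp3 and Inpp5d, with Tex101 at -0.0014. Smaller shifts of the same kind lay in the controls: D3 replicate 2 was below the mean of the other D3 arrays for 10 of 10 genes (Dazl -0.76) and siSCR replicate 1 above the other siSCR arrays for 10 of 10 (AU018091 0.57). After the group means were removed, 36 of the 45 pairs of genes correlated at a Pearson r of 0.85 or more over the 12 arrays. All 9 pairs below that involved Tex101. These correlations share the same 12 arrays, of which siPRMT1 replicate 2 has the largest deviations.

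**Figure D2:**
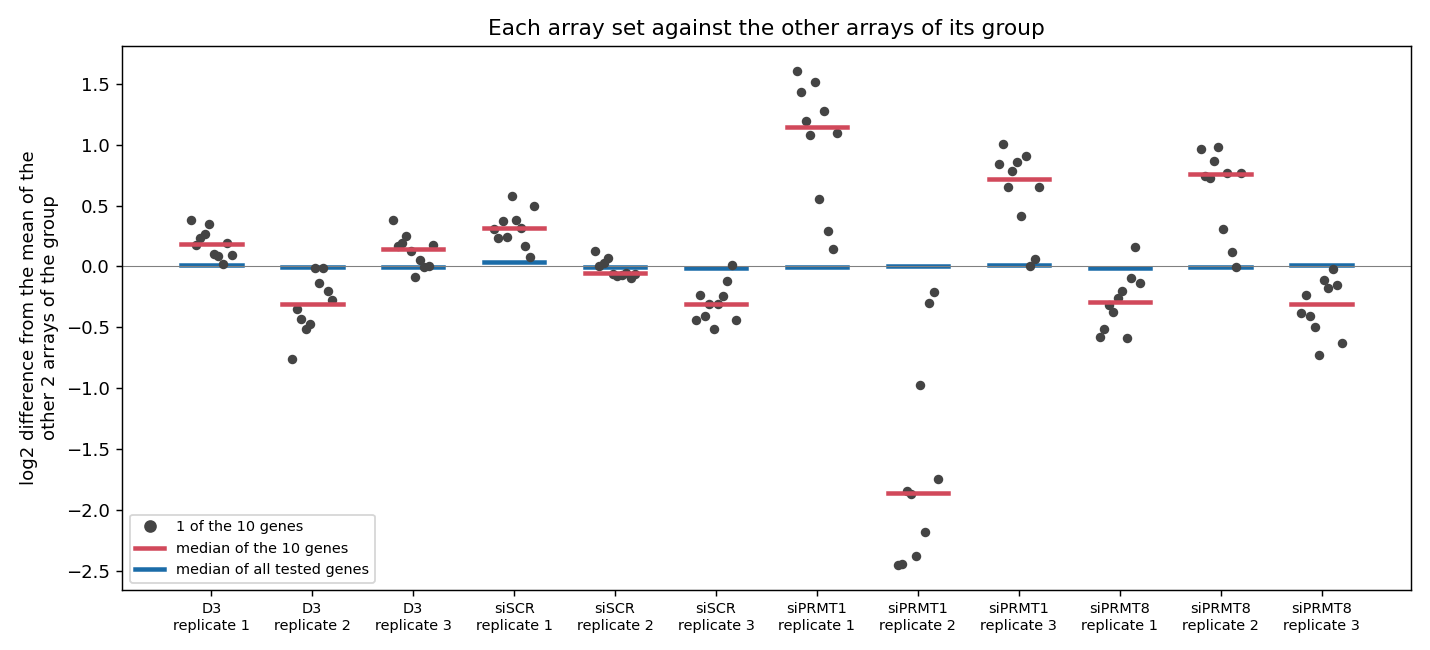
Log2 difference of each array from the mean of the other arrays of its group (y axis), for the 12 arrays (x axis). Each dot is 1 of the 10 genes, the red bar their median and the blue bar the median of all tested genes; the red bar lies at -1.85 in siPRMT1 replicate 2, and the blue bars lie near 0 on every array.

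Against the range of all 6 control arrays, siPRMT1 replicate 2 was below it for 8 of the 10 genes. Replicates 1 and 3 of siPRMT1 were below it for none and above it for 6 and 5. The siPRMT8 arrays were below it for 8, 7 and 9 genes in replicates 1, 2 and 3. For comparison, between 22.1% and 31.0% of all tested genes lay below all controls on the single knockdown arrays, and 32.0% and 32.1% lay above them in siPRMT1 replicates 1 and 3. For these 8 genes siPRMT1 replicate 2 thus read at the level of the siPRMT8 arrays or lower, while the other siPRMT1 arrays read among or above the controls.

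The group means therefore describe the siPRMT1 cultures poorly. Between siPRMT1 and siSCR the mean differences ran from -1.09 for Dazl and -0.89 for Inpp5d to 0.25 for Ddx4 and Tex101, and the groups overlapped for every gene but Tex101. Of all tested genes 30% had siPRMT1 and siSCR arrays that did not overlap, in either direction. Between siPRMT8 and siSCR the differences were -2.14 for Dazl, -1.94 for AU018091, -1.69 for Inpp5d, -1.40 for Scml2, -1.19 for Usp26 and -1.05 for Mael, with no overlap for these 6 genes. The other 4 genes overlapped, with differences from -0.20 for Sycp3 to 0.11 for Ddx4. All siPRMT8 arrays were below all siSCR arrays for 21.2% of all tested genes. Against D3 the same 6 genes and Stk31 were lower in siPRMT8 without overlap, from -0.16 for Stk31 to -1.73 for AU018091, and 25.3% of all tested genes were lower without overlap. Stk31 was under the filter and so is not among the tested genes. Without siSCR replicate 1 the same 6 genes were lower in siPRMT8 than siSCR without overlap (-0.97 for Mael to -2.04 for Dazl). The siPRMT1 differences then ran from -0.99 for Dazl to 0.38 for Ddx4, and that of Sycp3 turned from -0.070 to 0.036. These counts come from the arrays that chose the genes, and nothing is read from them.

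The swings that chose the genes lay on the knockdown arrays, and the control groups were compared by a test. The genes were chosen with earlier results of these data known, however, so the control values may also have entered the choice. The spread in this test comes from all 4 groups and so holds the swings that chose the genes. Of the 9 genes that passed the filter, none was called between siSCR and D3 (limma, adjusted p from 0.735 to 0.950, 0 at an unadjusted p under 0.05, n = 3 per group), where 0.154% of all tested genes were called. The largest differences were 0.52 for Inpp5d (SE 0.401) and 0.50 for Dazl (SE 0.552). The siSCR arrays were all above the D3 arrays for Inpp5d, Mael (0.29, SE 0.511) and Scml2 (0.41, SE 0.423). The standard errors hold the swings of the siPRMT1 arrays, as for Mael, whose SD was 0.20 in D3 and 0.15 in siSCR. A call was therefore unlikely, and its absence does not show that the control lines were alike. A fit of siSCR and D3 alone also called none of the 9, with 3 arrays per group. No gene was called without siSCR replicate 1 or without siPRMT1 replicate 2 either.

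Germ cell genes outside the 10 were taken from lists for germ granules and piRNAs, meiosis, other germ cell roles, and spermatids and sperm. Of 122 listed genes 72 were tested. The within-group differences extended to some of them and not to all. In siPRMT1 replicate 2, 13 of the 72 (18.1%) were lower by 1 log2 or more than the mean of replicates 1 and 3, against 0.910% of all tested genes. In siPRMT8 replicate 2, 9 of 72 (12.5%) were higher by 0.5 or more, against 0.762% of all. Meiosis genes, 25 of the 72, made up 8 of the 13 and 8 of the 9. Smc1b, the meiotic cohesin subunit, read 7.20, 4.96 and 6.87 in siPRMT1, with 5.29, 6.34 and 5.74 in siPRMT8. Hormad2, which marks unsynapsed chromosome axes, read 7.57, 5.38 and 7.30 in siPRMT1, with 6.09, 7.08 and 6.34 in siPRMT8. Both followed the pattern of Sycp3 and Dazl on the 6 knockdown arrays. Of the 9 tested genes of spermatids and sperm none was lower by 1 log2 or more in siPRMT1 replicate 2, and their median difference there was 0.21. Genes of earlier germ cell stages varied among themselves. Dppa3, Sohlh2 and Prdm14 were lower in siPRMT1 replicate 2 than the mean of replicates 1 and 3, by -1.06, -1.35 and -0.85, and Prdm1 by -0.44. Nanos3 (6.10, 6.46 and 6.10 in siPRMT1) was higher there, and Dnd1 (6.47, 6.28 and 6.45) differed little. Tdrd1, another marker of germ cells, was under the filter.

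**Figure D3:**
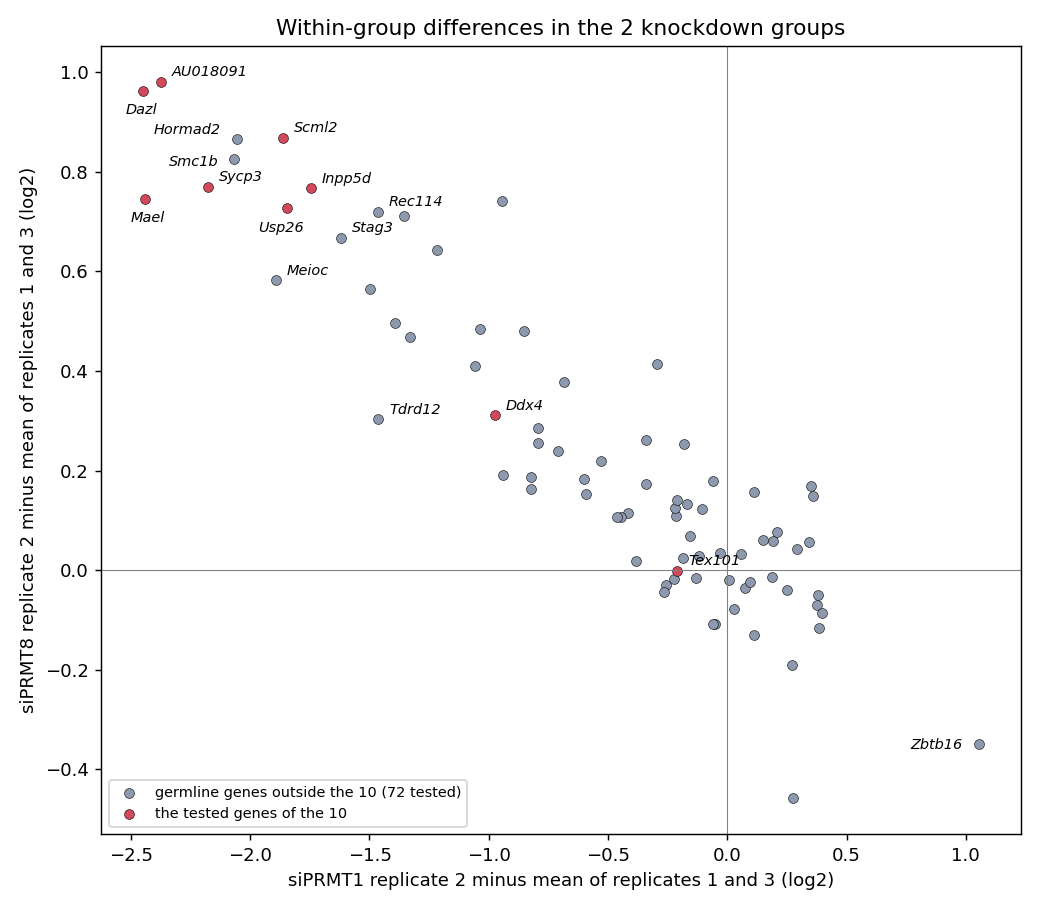
Log2 difference of replicate 2 from the mean of replicates 1 and 3 in siPRMT1 (x axis) and siPRMT8 (y axis). Red points are the 9 tested genes of the 10 and grey points the 72 tested germ cell genes outside them; most red points lie at the upper left, with Dazl at -2.45 and 0.96, beside meiosis genes such as Smc1b and Hormad2, while most grey points lie near the origin.

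In siPRMT1 against siSCR, 6 of the 72 genes outside the 10 passed (8.33%, against 18.7% of all tested genes). Zbtb16, a transcription factor of spermatogonial stem cells that other tissues also express, rose by 0.92 log2 (SE 0.238, adjusted p = 0.0206). Psmc3ip and Trip13, which act in meiotic recombination and also in dividing somatic cells, rose by 0.47 (adjusted p = 0.00208) and 0.43 (adjusted p = 0.0175). Exd1, a piRNA pathway protein, rose by 0.26. Gfra1, the GDNF receptor of spermatogonia and neurons, fell by 0.60 (adjusted p = 0.0087), and Prdm1, a regulator of primordial germ cell fate, fell by 0.46. The count was 13 without siPRMT1 replicate 2 (where 22.6% of all tested genes passed), 3 without siSCR replicate 2, 3 without siSCR replicate 3 and 9 without siSCR replicate 1. For the fits without a siSCR array the share of all tested genes was not taken. Psmc3ip and Gfra1 passed whichever single array was left out, whereas Zbtb16 was lost without siSCR replicate 2 (adjusted p = 0.0722) or 3 (adjusted p = 0.0664), as Trip13 was (adjusted p = 0.0573 and 0.0642, and 0.0513 without siPRMT1 replicate 1). The call of Exd1 was lost without siPRMT1 replicate 2 or 3 or siSCR replicate 2 or 3 (adjusted p = 0.0506 to 0.112). With D3 as the control, Zbtb16 was 0.40 higher (adjusted p = 0.228) and Prdm1 was not called (log2 -0.18, adjusted p = 0.279).

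In siPRMT8 against siSCR, 11 of 72 passed (15.3%, against 23.8% of all). The same 3 genes Zbtb16, Psmc3ip and Trip13 rose, by 0.90, 0.44 and 0.38. Of the 8 that fell, 4 belonged to the meiosis list, which made up 25 of the 72 tested genes. Rec114, which helps to form meiotic DNA breaks, fell by 1.20 (SE 0.352, adjusted p = 0.0292), Hormad1 by 0.80 (SE 0.260, adjusted p = 0.0442) and the cohesin subunit Rec8 by 0.55 (SE 0.107, adjusted p = 0.00481). Prdm1 fell by 0.71, Gfra1 by 0.58 and Tfap2c, another primordial germ cell regulator, by 0.55. Rec8 and Psmc3ip were called in every leave-one-out fit, and neither Hormad1 (log2 -0.52, adjusted p = 0.161) nor Zbtb16 (0.38, adjusted p = 0.267) was called against D3. The Rec114 call was lost without siPRMT8 replicate 1 or 3 or any 1 siSCR array (log2 -0.99 to -1.28, adjusted p = 0.0622 to 0.121). The count was 29 without siPRMT1 replicate 2 (where 31.9% of all passed), 6 without siPRMT8 replicate 1, 5 without siPRMT8 replicate 3, and 7, 5 and 5 without siSCR replicates 1, 2 and 3. For the fits without a siPRMT8 or siSCR array the share of all tested genes was not taken.

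The direct comparison of siPRMT1 with siPRMT8 turned on a single array. With all arrays, none of the 72 genes passed in limma, against 0.154% of all tested genes. At an unadjusted p under 0.05 there were 13 of the 72, and 18 were called when arrays were weighted by their quality. The shares of all tested genes were not taken for these counts. Without siPRMT1 replicate 2, 22 of the 72 passed, all of them higher in siPRMT1, where 5.76% of all tested genes passed and 3.84% were higher. Smc1b was then 1.24 higher (SE 0.269, adjusted p = 0.0265), Rec114 1.18 (SE 0.235, adjusted p = 0.0207), Meioc, which keeps germ cells in meiotic prophase, 1.02, and Rnf17, a germ granule protein, 0.95. That fit leaves 2 siPRMT1 arrays, and its residual spread also loses the array with the widest differences. The array left out is the one where these genes read low (mean of the 72 genes 6.49, against 6.91 and 6.85 in replicates 1 and 3). The direction of these calls follows in part from its removal, so the count describes replicates 1 and 3 only. Leaving out any other array gave 0 of 72. Between siSCR and D3 none of the 72 passed (6 at an unadjusted p under 0.05).

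Genes of the machinery that silences germ cell genes were examined as a list of 33. In siPRMT1 against siSCR 5 rose and none fell, and in siPRMT8 6 rose and 3 fell (15.2% and 27.3% called, against 18.7% and 23.8% of all tested genes). Without siSCR replicate 1 the counts were 6 and 0 in siPRMT1 and 7 and 2 in siPRMT8, and the share of all tested genes was not taken for that fit. Dnmt3b rose by 1.06 and 1.09 (adjusted p = 0.00122 and 0.00106), the deacetylase subunit Hdac1 by 0.47 in both, and E2f6 by 0.55 in siPRMT8 (adjusted p = 0.00316). In siPRMT1 the rise of E2f6 was smaller, at 0.33, and was called as well (limma, adjusted p = 0.0376). Cbx1, a heterochromatin protein, rose by 0.37 in siPRMT1. The mean of Cbx1 was higher still in siPRMT8, at 9.30, against 9.21 in siPRMT1 and 8.84 in siSCR. In siPRMT8 Atf7ip, a cofactor of the histone methyltransferase SETDB1, fell by 0.29 (adjusted p = 0.00605) and the demethylating enzyme Tet2 by 0.36 (adjusted p = 0.0482). Dnmt3l, the cofactor of the de novo methyltransferases, followed the 10 genes (r = 0.971 over the 12 arrays), with 9.65, 6.40 and 9.23 in siPRMT1, 6.55, 8.08 and 6.61 in siPRMT8 and values between 8.40 and 9.46 in the controls. It fell by 2.06 in siPRMT8 against siSCR (SE 0.689, adjusted p = 0.0487), a call lost against D3 (log2 -1.77, adjusted p = 0.0775), with the replicate number as a block (adjusted p = 0.0640) and without any of 9 single arrays (adjusted p = 0.0532 to 0.156). The Tet2 call was lost there too (log2 -0.25, adjusted p = 0.142).

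Other lists moved with the swings. Of 26 tested pluripotency genes, 24 (92.3%) were lower in siPRMT1 replicate 2 than the mean of replicates 1 and 3, by a median of -0.68. Of all tested genes 49.5% were lower there. By 1 log2 or more 9 of the 26 were lower (34.6%, against 0.910% of all tested genes). The mean of the list read 9.36, 8.56 and 9.17 on the siPRMT1 arrays, 8.80 to 9.01 in siPRMT8, 8.77 to 8.91 in D3 and 9.01 to 9.30 in siSCR. Among its defining markers Nanog read 11.23, 10.37 and 10.91 and Pou5f1 10.52, 10.04 and 10.34 in siPRMT1. Set against replicates 1 and 3, Dppa5a lay at -1.55, Esrrb at -1.13 and Zfp42 at -0.94 in replicate 2. Fbxo15 had the lowest value of the list there (-1.78), while Lin28a (0.81) and Sall4 (0.26) were higher. Against siSCR 2 of the 26 rose and 1 fell in siPRMT1 (11.5% called, against 18.7% of all tested genes). In siPRMT8 1 rose and 3 fell (15.4%, against 23.8%). Lin28a rose by 1.09 in siPRMT1 and 0.88 in siPRMT8, and Lefty1 fell by 0.54 and 0.59. The part of undifferentiated cells in the differences between arrays was not tested. The neuronal list moved against the 10 genes in siPRMT1, where its means were 8.04 to 8.25 with replicate 2 the highest. In siPRMT8 it moved the same way as the 10 genes, with means of 8.18, 8.42 and 8.28. There 14 of 17 genes were higher in replicate 2 (82.4%, median 0.20), against 72.2% of the 72 germ cell genes and 49.1% of all tested genes. Against siSCR 13 of the 17 neuronal genes fell in siPRMT1 and 11 in siPRMT8, where Nefm rose. These were 76.5% and 70.6% called, against 18.7% and 23.8% of all tested genes. Without siSCR replicate 1 the counts that fell were 16 and 16, and the share of all tested genes was not taken for that fit. siSCR replicate 1, low for neuronal genes, was at the same time the highest siSCR array for all 10 genes. Of the markers of blood and myeloid cells, where Inpp5d is best known, Ptprc, Aif1, Csf1r, Itgam and Spi1 were under the filter and Tyrobp passed it. The blood list averaged 6.23 to 6.41 in the controls, 6.28 to 6.43 in siPRMT1 and 6.14 to 6.26 in siPRMT8. Of its 10 tested genes 2 (20%, against 0.910% of all tested genes) were lower by 1 log2 or more in siPRMT1 replicate 2. They were the lysosomal proteins Cd68 (-1.13) and Laptm5 (-1.11), and the other 8 were higher there. Cd68 read 8.93, 7.69 and 8.72 in siPRMT1, with 7.69, 8.14 and 7.80 in siPRMT8, and it fell by 0.87 in siPRMT8 against siSCR (adjusted p = 0.0279, and 0.0622 to 0.0943 without siPRMT8 replicate 1 or 3 or any 1 siSCR array). The part of blood cells in the differences was not tested. Of the Sertoli and Leydig cell markers Amh, Fshr and Cyp17a1 were under the filter, and Dhh and Star passed it. The lists of Sertoli and Leydig cells and of early endoderm and trophoblast moved by medians of 0.15 and 0.19 in siPRMT1 replicate 2. There 2 of 7 and 3 of 10 tested genes were lower, among them Dmrt1 (-0.44) and Krt18 (-0.79). Against siSCR 2 of the 7 fell in siPRMT1 (28.6%, against 18.7% of all tested genes) and 3 in siPRMT8 (42.9%, against 23.8%). Of the 10, Dab2, Gata6 and Sox17 rose in siPRMT1 (30%, against 18.7%) and none was called in siPRMT8. The interquartile range of siPRMT1 replicate 2 was the lowest of the 12. After quantile normalization, which makes all ranges equal, the span of Dazl over the siPRMT1 arrays was 2.79. The part of array quality in the differences between arrays was not tested.

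**Figure D4:**
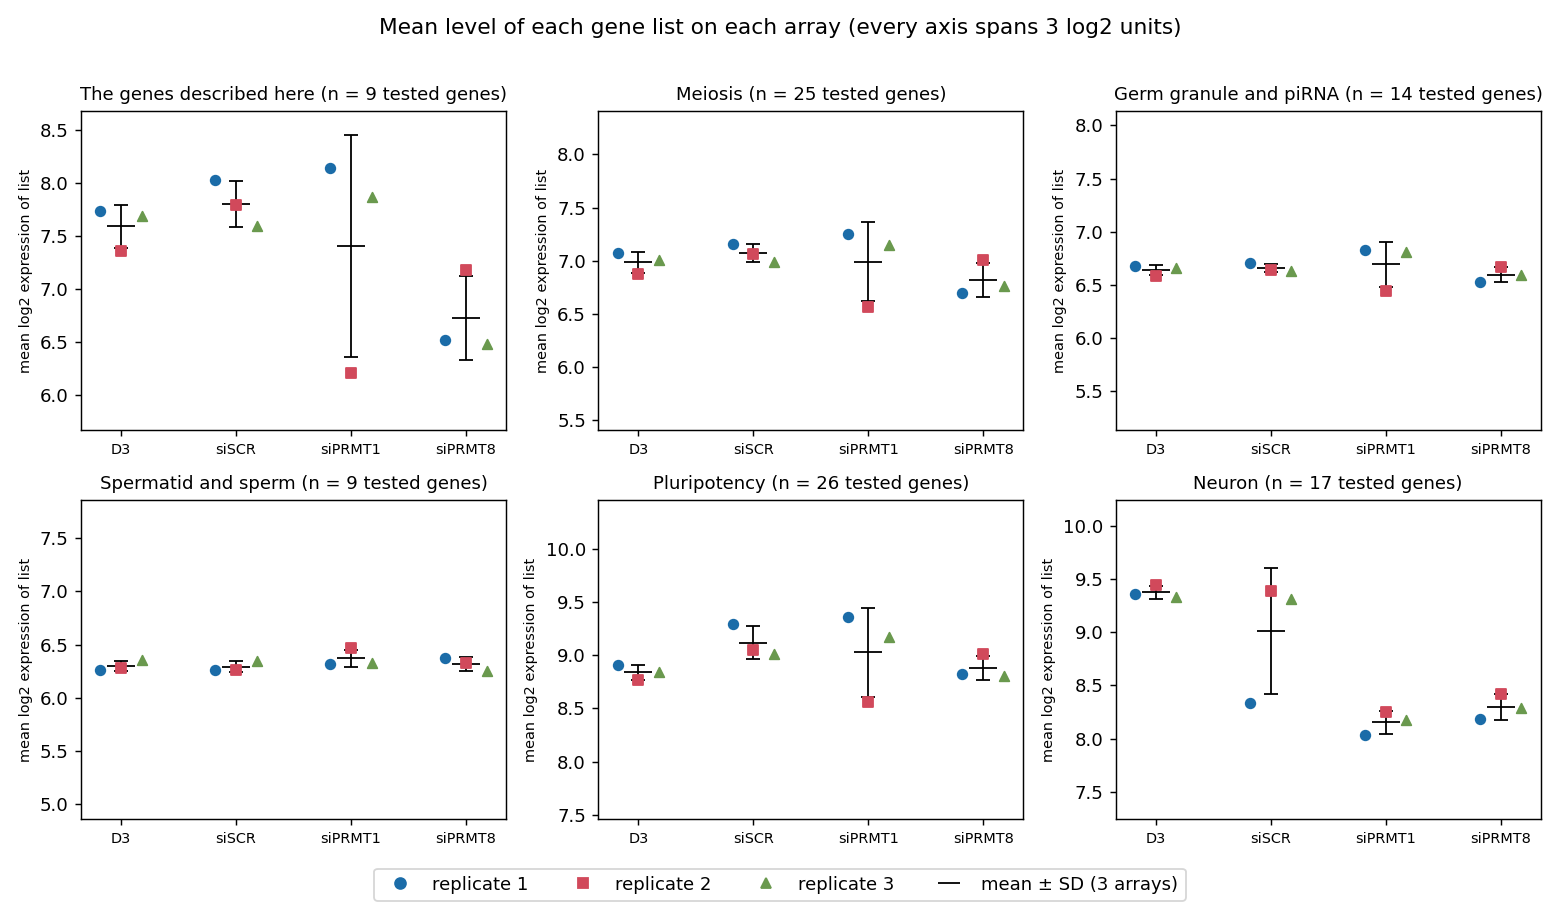
Mean log2 expression of the tested genes of 6 lists (y axis, same span in every panel) on each array, by group (x axis), with points for replicates and bars for the mean ± SD of 3 arrays. siPRMT1 replicate 2 is the lowest siPRMT1 array for the genes described here, meiosis, germ granule and pluripotency genes and the highest for neuronal genes, and siSCR replicate 1 reads 8.33 for neuronal genes.

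The 10 genes named as most like in pattern were mostly known from other roles. Likeness was the Pearson correlation over the 12 arrays with the mean of the standardised values of the 10 genes, given here as a description, since all points share the same arrays. Fgf4, a growth factor of embryonic stem cells, was the closest (r = 0.985), with 9.37, 7.88 and 9.19 in siPRMT1, with 8.14, 8.64 and 8.09 in siPRMT8. The cell cycle transcription factor Mybl2 had r = 0.985, the kinase Sgk1 0.982, Tmem106a 0.981, the lipid carrier Apoe 0.979, the mitochondrial import protein Timm8a2 0.979, the adhesion molecule Mcam 0.974, the ciliary protein Mks1 0.973, the fatty acid binding protein Fabp3 0.972 and the RNA editing enzyme Apobec1 0.972. 1 predicted gene ranked among them. Of all tested genes 1.5% reached an r of 0.9, as did 15.4% of the 26 pluripotency genes and 9.09% of the 33 silencing genes. Of the 72 other germ cell genes 19.4% did. The piRNA helicase Mov10l1 (r = 0.963) and Rnf17 (r = 0.958) were among those.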

How the data were processed

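Gene expression was measured in 12 cultures, 3 in each of 4 groups, which were taken from the sample labels. The authors deposited 1 log2 value per probe set and array, for 35556 probe sets. The values ran from 0.97 to 13.54, from which the log2 scale was taken. How the authors corrected background, summarised and normalised is not given in the sources used here. Without scanner files there is no detection call, and probe sets of different genes cannot be compared in level. No batch or date is labelled. The number of arrays limits the precision.

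Probe sets were named through the platform annotation (21789 with 1 symbol, 1621 with several, 12146 with none), and 21698 were updated by gene ID through RefSeq GRCm38.p6. Per symbol the probe set with the highest mean was used, which left 19938 genes. The lowest 25% by mean (below 5.43) were left out, which left 14953, among them 9 of the 10 genes. Differences were fitted with lmFit and eBayes of limma 3.58.1 under R 4.3.3, on 4 group means with 8 residual degrees of freedom. P-values were adjusted by Benjamini-Hochberg over all 14953 genes, with a threshold of 0.05. The fit was tested on simulated data, drawn independently for each gene with the same spread in all groups. Such data hold no array that is low for many genes at once, so they do not test the fit on these swings.

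The 10 genes and the lists were chosen with earlier results of these data known. Named genes are the 10, up to 3 higher and 3 lower passing genes of a list in a comparison, the 10 most correlated genes (predicted genes counted but not named), Prmt1 and Prmt8. Genes named for other reasons (Smc1b, Hormad2, Meioc, Rnf17, Mov10l1, Dppa3, Sohlh2, Prdm14, Laptm5, Fbxo15, Sall4 and the markers without a call) were chosen after their values were seen or as fixed cell type markers. Deviations from the group means of same-numbered arrays correlated at 0.11 to 0.19 for siSCR and D3. In the other comparisons these correlations ran from -0.56 to 0.21. Only for siSCR and D3 were all of them positive, but values this small do not establish a pairing, and the labels name none. The alternatives were other filters, normalisation, D3 as control, fits of 2 groups, a trended robust variance, array weights, a replicate block and leaving out each array. A further alternative, leaving out siSCR replicate 1 and siPRMT1 replicate 2 together, was chosen after seeing the data. Shares of all tested genes that passed were taken for the main fits and without siPRMT1 replicate 2, and not for the other alternatives.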

Additional observations from a re-analysis of the deposited data

How the results depend on the processing

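The count of germ cell genes outside the 10 depended on single arrays and on the model. For siPRMT1 against siSCR it was 6, and it became 23 with array weights, 12 with D3 as the control, 10 of 116 with no filter, 1 with only the 2 groups fitted, and 3 to 13 when 1 array was left out. For siPRMT8 against siSCR it was 11, and it became 21 with array weights, 6 of 29 with the lowest 50% of genes left out, 20 with only the 2 groups fitted, and 5 to 29 when 1 array was left out. For siPRMT1 against siPRMT8 it was 0, and it became 18 with array weights and 0 to 22 when 1 array was left out. When both siSCR replicate 1 and siPRMT1 replicate 2 were dropped, an alternative chosen after seeing the data, the counts were 23, 28 and 31. Fewer genes or arrays enter some of these fits, and other causes were not tested. For siSCR against D3 no setting gave a call among the 10 or the 72. The replicate number as a block gave 7, 11, 0 and 0 calls among the 72 in the comparisons of siPRMT1 with siSCR, siPRMT8 with siSCR, siPRMT1 with siPRMT8 and siSCR with D3. It gave 0 among the 10 in the last, so the block changed no call in siSCR against D3. Under the block Hormad1 and Tet2 lost their call in siPRMT8 against siSCR (adjusted p = 0.0670 and 0.0738). Of the single genes, the sign of Lefty1 turned with D3 as the control (0.077 in siPRMT1 and 0.033 in siPRMT8), and that of Tex101 in siSCR against D3 turned without D3 replicate 2 (-0.038, with a range of -0.038 to 0.093 when 1 array was left out). Among the other values of single genes under alternatives, 139 lost their call in the same direction and 1124 kept their side of the threshold. The spans of the 10 genes within the siPRMT1 and siPRMT8 arrays moved by less than the replicate SD in all 60 values under quantile normalization, median centring and the mean over probe sets. Each of the 10 genes had 1 probe set, so the mean over probe sets could not move a span. Median centring could move it by 0.023 log2 at most. Only quantile normalization could move it further, and the replicate SD, taken from the same arrays, is a wide limit.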
